A study of Mus musculus with 8 samples.

Results

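The genes described here are 33 genes of the actin cytoskeleton and the contractile apparatus, of 23420 gene symbols counted in the series. They were chosen by name as smooth muscle, stress fibre and focal adhesion genes: 4 actins, 6 genes of the calponin, transgelin and leiomodin families, 4 tropomyosins, 2 troponins, 6 genes of myosin II and its kinase, 3 crosslinkers and 8 focal adhesion or LIM domain genes. They were followed in the RNA-seq read counts of 8 libraries from mouse embryonic fibroblasts of the C57BL6/N background, 4 from wild-type cells and 4 from Neat1-/- cells, called Neat1 null here. Cells of both genotypes expressed the adenoviral oncoprotein E1A and the activated Ras HRasV12, so the series compares transformed cells with transformed cells. The labels give neither the way E1A and HRasV12 were introduced nor whether each library had its own embryo or culture. The p-values therefore rest on library-to-library spread alone, which may be technical in part or, among wild-type libraries, as a whole.

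Actin filaments give a fibroblast its shape and its pull. Non-muscle beta- and gamma-actin are bundled by alpha-actinin and filamin, decorated by tropomyosin, drawn together by myosin II, and anchored at focal adhesions through talin, vinculin, paxillin and zyxin. Smooth muscle alpha-actin, transgelin and calponin 1 join them when fibroblasts turn contractile, and many of these genes are targets of serum response factor (SRF), which binds a short promoter element called the CArG box. Transformation by Ras is known for the loss of stress fibres.

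Depth was 31651625 to 37069334 counts in genes per wild-type library and 19651035 to 38950207 per Neat1 null library. Neat1 had 138 to 1320 CPM (read counts scaled to 1000000 per library with TMM factors) in wild-type and 6.12 to 11.3 CPM in Neat1 null libraries (log2 fold change -6.44, SE 0.66, edgeR adjusted p = 0.000761), as the labels have it. Scaling matters for every level given below: the TMM factors were 1.08 to 1.33 in wild-type libraries but 0.567 in Neat1 null library 1, 1.05 in library 2, 0.728 in library 3 and 1.01 in library 4. Neat1 null libraries 1 and 3 also stood apart in the share of counts on ribosomal protein genes (25.4% and 15.0%, against 5.99% to 9.21% in the other 6), and library 1 in the share on the ribosomal RNA gene Rn45s (5.23%, against at most 0.939%). By Xist and 4 Y-linked genes, Neat1 null libraries 1, 2 and 4 were male and the other 5 female. The only female Neat1 null library is thus library 3, and for the other 3 sex and genotype cannot be told apart. The Neat1 null libraries also did not all come from the same embryo. Without TMM factors, Xist had 170 CPM in Neat1 null library 3, under the 608 to 2403 CPM of wild-type libraries. Summed, 10 fibroblast markers had 1323 to 2484 CPM in wild-type and 1943 to 3299 CPM in Neat1 null libraries, most of it vimentin (Vim, 1233 to 3263 CPM over all libraries), while decorin (Dcn) and lumican (Lum) stayed below 1 CPM in all. The sum thus mostly followed Vim, while the median log2 fold change of the 9 markers tested was -0.25. Group means, wild-type then Neat1 null, were 5.47 and 2.5 CPM for Col1a1, 21.8 and 3.5 for Col1a2 and 32.99 and 21.7 for Pdgfrb. They were 3.22 and 2.85 CPM for Col3a1 and 5.27 and 4.53 for Thy1. None of these was called, and all are named after their values were seen. Wild-type library 3 held most of Col1a2 (77.1 CPM) and Thy1 (15.99 CPM) in its group. Of the list, 1 gene was called lower, the receptor gene Pdgfra (40.9 to 148 CPM in wild-type and 3.92 to 10.9 CPM in Neat1 null libraries), and 1 higher, S100a4 (2.07 to 2.53 and 2.72 to 29.0 CPM), both named after their values were seen. Their part in the values of the contractile genes was not tested.

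More contractile and adhesion genes were higher than lower in Neat1 null libraries on the TMM scale. Of the 33, 30 passed the filter on low counts. Actg2, Lmod1 and Myh11 did not. The median log2 fold change, Neat1 null minus wild-type, was 0.65 for the 30 tested members and -0.06 for all 13316 genes tested, and 24 of the 30 members had a value above 0, as did 6367 of the 13316 genes. That count was 15 of 30 members with library totals in place of TMM factors, and 18 of 31 members without Neat1 null library 1. At an adjusted p below 0.05 (edgeR's quasi-likelihood test, Benjamini-Hochberg over all genes tested) 5 members rose, the slow skeletal troponin T gene Tnnt1, the myosin light chain gene Myl6, the tropomyosin gene Tpm3, and the LIM domain genes Csrp1 and Pdlim7. Tnnt1 passed the filter on low counts only through the Neat1 null libraries, the group where it was high. Of all genes tested, 9.97% rose. No member fell by edgeR at that threshold, where 7.72% of all genes fell. With 30 members, a count of 0 lies near that share. No member fell by DESeq2 either, where 1615 of 14884 genes fell. At an unadjusted edgeR p below 0.05, 0 of 30 members were lower and 12 were higher. The share of all genes at that level was not taken, so these counts do not tell whether the members differ from other genes. The groups did not overlap for 7 members: Tpm2, Tpm3, Tnnt1, Myl6, Actn4 and Pdlim7 were higher in all Neat1 null libraries (11.7% of all genes were), and Vcl was lower (11.0%). With library totals in place of TMM factors, Tpm3 and Tnnt1 were higher without overlap (5.20% of all genes) and Myh9, Myh10 and Vcl lower (20.4%).

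The calls lay close to the threshold. Without Neat1 null library 1, Tnnt1, Pdlim7 and Csrp1 were called (6.71% of all genes rose in that fit). Without Neat1 null library 3, wild-type library 3 or wild-type library 4, 0 members were called, and 13, 18 and 11 genes were called among all tested, against 2356 with all libraries. Without Neat1 null libraries 1 and 3 together it was again 0 members, of 7 genes in all. Without wild-type library 1, Tpm3, Tnnt1 and Myl6 were called (10.7% of all genes rose), and without Neat1 null library 2 it was 8 members (12.5%). DESeq2 called 9 members, adding Actg2, Tpm2, Zyx and Csrp2, where 13.1% of all genes rose. Actg2, which edgeR did not test, had 15, 0, 1 and 1 reads in Neat1 null libraries and 1 read in wild-type library 3. It came in only through the group where it was high. DESeq2 gave no adjusted p for 3 members, Acta2, Tagln and Myl9. Its count is thus not over the same 30 members as that of edgeR. With library totals in place of TMM factors, a scale added after the data were seen, the median of all genes moved to -0.59 and that of the members to 0.04, and Tagln, Tnnt1 and Myl6 were called (2.92% of all genes rose). The split of calls over all genes, 1328 higher and 1028 lower with TMM factors, was 1036 and 1428 with upper-quartile factors and 389 and 2142 with library totals. The distance between the members' median and that of all genes was 0.64 to 0.72 under the 4 scalings tried. Scaling moves members and other genes nearly alike, so this range does not test the distance. With 1 library left out the distance ran from 0.41 (Neat1 null library 1) to 0.96 (Neat1 null library 2). It was 0.39 after the correction for transcript length and GC content given below. Dropping both library 1 and library 3 of the Neat1 null group gave 0.36.

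**Figure D1:**
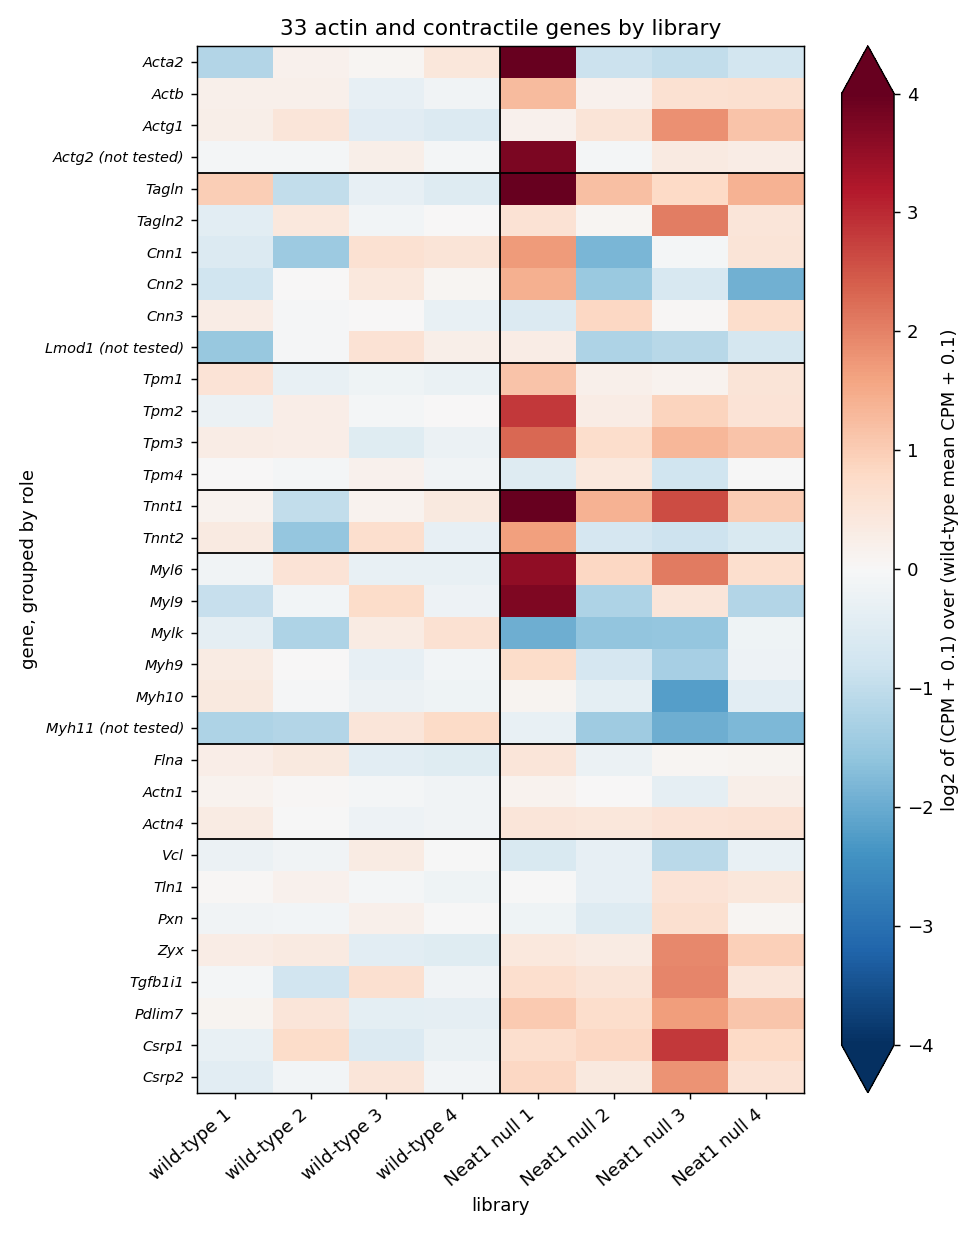
Level of each of the 33 genes in each library as log2 of (CPM + 0.1) over (wild-type mean CPM + 0.1), with colours limited to the range from -4 to 4; rows are grouped by role, and a vertical line parts the genotypes. Neat1 null library 1 is darkest red at Acta2, Tagln, Tnnt1, Actg2, Myl9 and Myl6, and library 3 at Csrp1, Tnnt1, Myl6 and Tagln2.

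Gene length moved with the genotype difference. The 6 tested members with a transcript over 5000 bases (Mylk, Myh9, Myh10, Flna, Vcl and Tln1) had a median log2 fold change of -0.34, and the 24 shorter ones 1.04. Over all genes the medians of the same classes were -0.64 and 0.14. After each library was corrected for a trend with transcript length and GC content, the members' median was 0.49 and that of all genes 0.10, and Tpm3 alone was called (log2 fold change 1.57, edgeR adjusted p = 0.0460), where 3.89% of all genes rose and 3.24% fell. The corrected values of Mylk, Flna and Tln1 were -0.70, 0.71 and 0.70, and those of Myh9, Myh10 and Vcl were 0.28, 0.08 and 0.05.

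**Figure D2:**
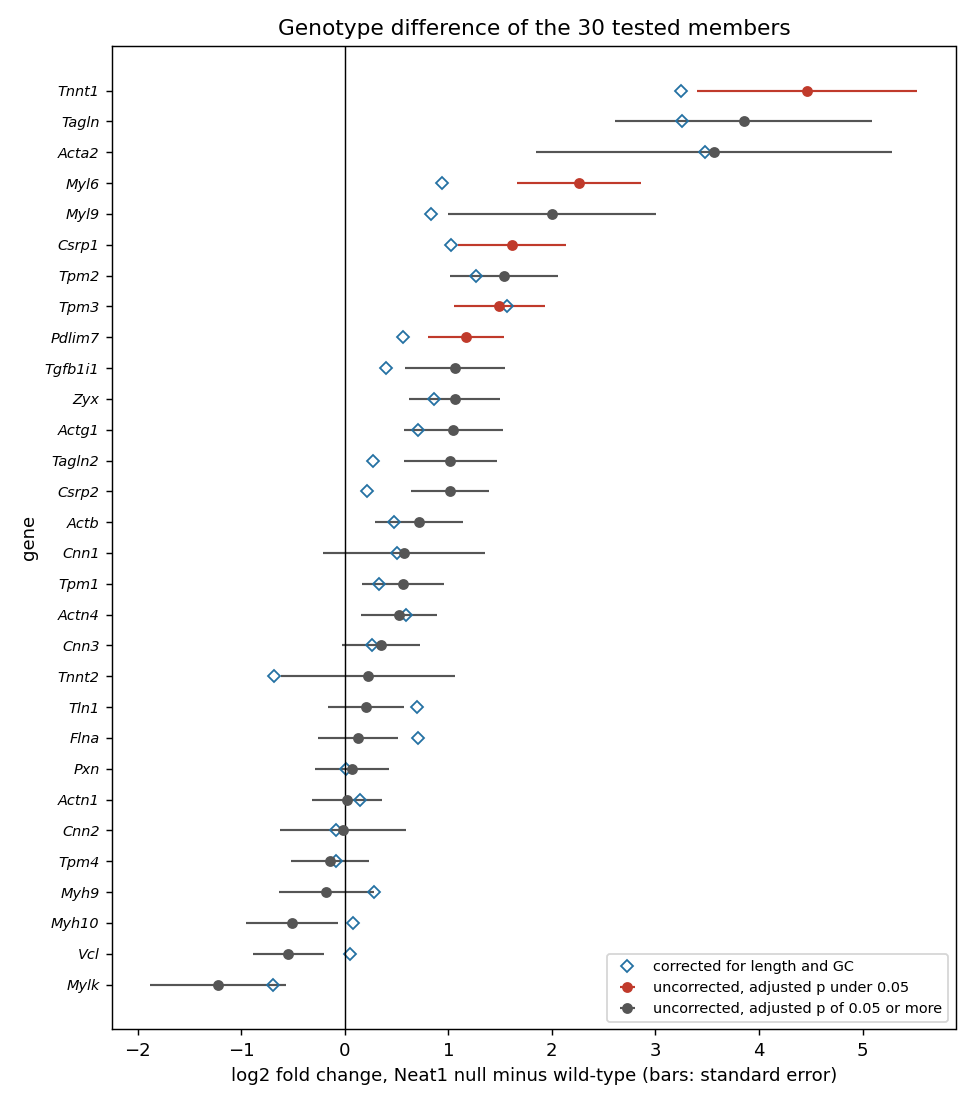
Log2 fold change, Neat1 null minus wild-type, of the 30 tested members (filled circles, bars are standard errors, red for an adjusted p below 0.05) and the value after the length and GC correction (open diamonds). The 5 called members lie at 1.17 to 4.46, and the values of Myh9, Myh10, Vcl and Tnnt2 cross 0 with the correction.

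The cytoplasmic actins made up nearly all actin RNA. Per kilobase of transcript, Actb, beta-actin, had 771 ± 137 CPM and Actg1, gamma-actin, 471 ± 162 CPM in wild-type libraries (mean ± SD, n = 4). Smooth muscle alpha-actin (Acta2) had 1.31 ± 0.534 CPM per kilobase on the same scale, under the level of either. In CPM, Actb had 1706, 1693, 1174 and 1347 in wild-type libraries 1 to 4 and 3536, 1681, 2238 and 2289 in Neat1 null libraries 1 to 4. The groups overlapped through Neat1 null library 2, and the log2 fold change of 0.72 (SE 0.43) was not called (edgeR adjusted p = 0.234).

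Actg1 had 1091, 1279, 678 and 629 CPM in wild-type and 1031, 1322, 3255 and 2010 CPM in Neat1 null libraries. Neat1 null libraries 2 to 4 lay above all wild-type libraries, library 2 by a small margin, and library 1 lay within them. On the log2 scale the fold change was 1.05 (SE 0.48, edgeR adjusted p = 0.126). Within libraries, the share of gamma-actin in the summed actin RNA per kilobase was 31.4% to 42.6% in wild-type and 21.7%, 43.6%, 58.8% and 46.3% in Neat1 null libraries. Gamma-actin exceeded beta-actin in Neat1 null library 3 and in no other library. The log2 ratio of Actg1 to Actb, which needs no library scaling, was -0.73 ± 0.29 (SD) among wild-type and -0.44 ± 0.97 among Neat1 null libraries (exact 2-sided permutation p = 0.629, adjusted 0.754 over 6 such ratios).

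Acta2 on chromosome 19 (34241090 to 34255590, GRCm38) was high in a single library. It had 1.11, 3.03, 2.84 and 3.65 CPM in wild-type and 123, 1.41, 1.31 and 1.57 CPM in Neat1 null libraries, where library 1 held 1366 reads. That library lay 33.6-fold above the next highest one, and Neat1 null libraries 2 to 4 lay below wild-type libraries 2 to 4. The log2 fold change of 3.57 (SE 1.72) was not called (edgeR adjusted p = 0.180) and turned to -0.90 without Neat1 null library 1 (adjusted p = 0.253). Gamma smooth muscle actin (Actg2) had 1 read over all wild-type libraries and 15, 0, 1 and 1 reads in Neat1 null libraries, so its reads too came mostly from library 1.

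Transgelin (Tagln, also called SM22), an actin-binding protein of smooth muscle, was likewise highest in Neat1 null library 1. It had 4.24, 1.02, 1.65 and 1.44 CPM in wild-type and 107, 4.90, 3.74 and 5.68 CPM in Neat1 null libraries. Library 1 was 18.8-fold above the next. Of the other Neat1 null libraries, 2 and 4 lay above every wild-type library and library 3 lay below wild-type library 1. The log2 fold change was 3.85 (SE 1.24, edgeR adjusted p = 0.0622) and 1.21 without library 1 (adjusted p = 0.135). Exons of Tagln overlap those of Pcsk7 and Gm48529 on the other strand, and the strand setting of the counting is not given in the sources used here, so part of its counts is uncertain.

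Its relative Tagln2, which is abundant in non-muscle cells, had 142 to 256 CPM in wild-type and 289, 205, 801 and 268 CPM in Neat1 null libraries. Here library 3, not library 1, stood apart, at 2.77 times the next highest library. Its log2 fold change was 1.02 (SE 0.45, edgeR adjusted p = 0.118), 0.41 without library 3 and 0.28 after correction for length and GC content.

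The calponins, which bind actin and tropomyosin, differed among themselves. Smooth muscle calponin 1 (Cnn1) was near the floor, with 0.221 to 1.24 CPM in wild-type and 0.147 to 2.78 CPM in Neat1 null libraries. Cnn2 had 67.4, 119, 158 and 124 CPM in wild-type and 317, 41.6, 74.9 and 31.0 CPM in Neat1 null libraries. Library 1 was the highest of all 8, while libraries 2 and 4 were the lowest. The log2 fold change of Cnn2 was -0.015 (SE 0.61) with all libraries and -1.26 without library 1 (edgeR adjusted p = 0.0567). Cnn3 had the reverse order, with 126 CPM in Neat1 null library 1, the lowest of all, and 322 and 295 CPM in libraries 2 and 4, the highest, against 149 to 223 CPM in wild-type libraries. Exons of Cnn3 overlap Gm42928 on the other strand, with the same uncertainty as for Tagln. In the summed calponin RNA per kilobase, Cnn2 accordingly took 67.3% in Neat1 null library 1 but 9.72%, 24.6% and 8.04% in libraries 2 to 4, against 20.1% to 41.5% in wild-type libraries. Leiomodin 1 (Lmod1), which nucleates actin filaments in smooth muscle, had 3 to 29 reads per library.

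**Figure D3:**
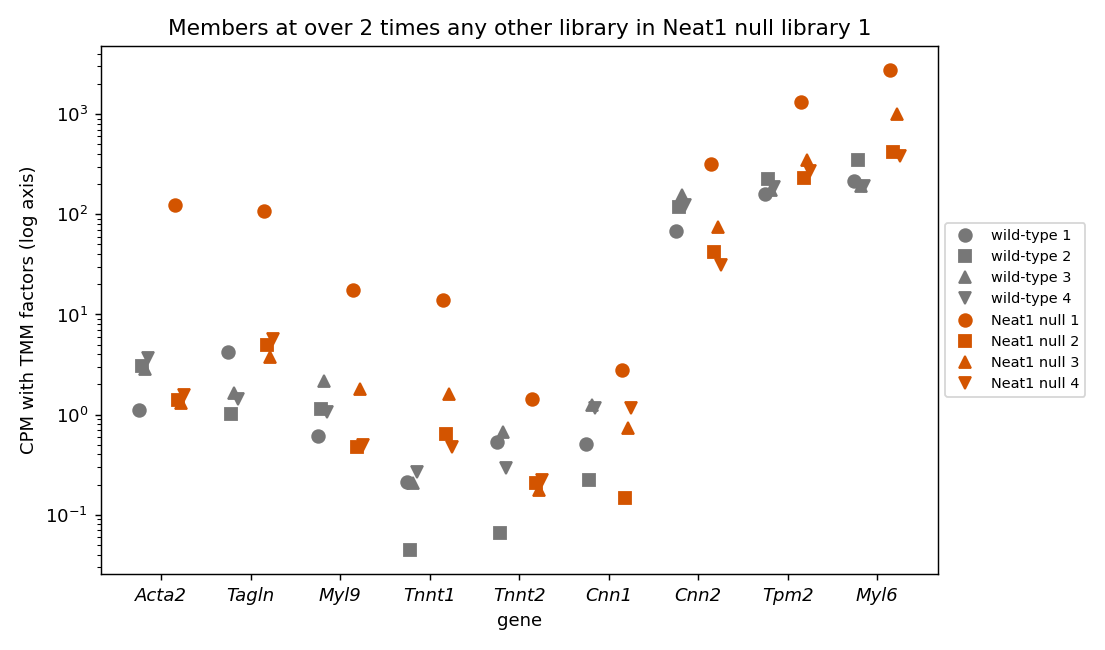
CPM on a log axis of the 9 tested members that stood more than 2-fold above every other library in Neat1 null library 1 (orange circles); grey marks are wild-type libraries and orange marks Neat1 null libraries, with 1 shape for each library number. For Acta2, Tagln, Myl9 and Tnnt1 that library lies over 5-fold above any other.

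In all, 9 of the 30 tested members (Acta2, Tagln, Cnn1, Cnn2, Tpm2, Tnnt1, Tnnt2, Myl6 and Myl9) stood more than 2-fold above every other library in Neat1 null library 1, as did 5.84% of all genes tested, and 4 of them (Acta2, Tagln, Tnnt1 and Myl9) more than 5-fold, as did 0.781% of all genes. In Neat1 null library 3, 3 members (Tagln2, Tgfb1i1 and Csrp1) were more than 2-fold above every other library, against 3.93% of all genes, and in libraries 2 and 4 there were 0. Markers of other cells also moved in library 1. The summed level of 4 epithelial markers was 3181 CPM there, nearly all from keratin 18 (Krt18, 3144 CPM), against 194 to 633 CPM in wild-type and 249 to 935 CPM in the other Neat1 null libraries, with its partner Krt8 at 2.07 CPM. The other 2 epithelial markers were not high in library 1: Cdh1 had 1.35 CPM, the lowest of all 8 libraries, and Epcam 34.0 CPM, within the wild-type range of 26.9 to 57.1 CPM. The sum of 8 skeletal muscle markers was 1.68 to 7.41 CPM in wild-type and 6.56, 1.29, 2.54 and 1.73 CPM in Neat1 null libraries. Mylpf gave 4.49 CPM of it in Neat1 null library 1, and Tnni1 gave 5.10 CPM in wild-type library 3. Myod1 had 0 reads in all libraries. The sum of 7 cardiac markers was 1.51 to 8.28 CPM in wild-type and 17.2, 4.55, 56.7 and 6.18 CPM in Neat1 null libraries, of which Tnni3 gave 12.6 CPM in library 1 and Nkx2-5 gave 55.7 CPM in library 3, with Myh6 at 0 reads in all. Of the markers of other kinds, the endothelial sum was 1.59 to 9.90 CPM across wild-type libraries, against 0.359 to 2.57 CPM across Neat1 null ones. It was mostly Kdr in all but Neat1 null library 1, with Pecam1, Cdh5 and Tek below 1 CPM throughout. The neuronal sum was 25.2 to 52.3 and 7.46 to 25.8 CPM, most of it Map2 (group means of 34.7 and 13.2 CPM). Snap25 was also lower (0.803 and 0.143 CPM), while Tubb3 went the other way (0.621 and 1.98 CPM). Macrophage markers summed to 9.15 to 102 CPM and 4.13 to 18.4 CPM, nearly all Cd68, with Ptprc at 0 reads. The part of other cell types, of the ribosomal share and of the scaling in the library 1 values was not tested. In such bulk libraries, more cells of a type and more RNA per cell cannot be told apart.

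The summed level of further smooth muscle genes in Neat1 null library 1 lay within the wild-type range, though it was the highest of its group. Of 9 other listed smooth muscle genes 6 were tested and 0 were called in either direction, with a median log2 fold change of -0.64, and Lmod2 had no read. Their summed level was 526 to 683 CPM in wild-type and 577, 437, 392 and 394 CPM in Neat1 null libraries. Caldesmon (Cald1), the most abundant of them in wild-type libraries, had 294 to 511 CPM there and 351, 279, 95.8 and 149 CPM in Neat1 null libraries. Desmin (Des) had 2.94 to 15.3 CPM in wild-type and 14.6, 2.64, 11.1 and 3.70 CPM in Neat1 null libraries. Cald1, Des and Myocd are named after their values were seen. The heavy chain of smooth muscle myosin (Myh11), a defining marker of that cell type, had 7 to 43 reads in wild-type and 5, 5, 2 and 3 reads in Neat1 null libraries. Myocardin (Myocd), the coactivator of SRF in smooth muscle, had 0 reads in Neat1 null library 1.

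Tropomyosins lie along the actin filament and set which motors and severing factors reach it. Tpm3 on chromosome 3 (90072649 to 90100902) had 415, 409, 245 and 290 CPM in wild-type and 1673, 556, 846 and 755 CPM in Neat1 null libraries. Every Neat1 null library lay above every wild-type library. Tpm3 rose by a log2 fold change of 1.49 (SE 0.44, edgeR adjusted p = 0.0327), and had 1.08 without Neat1 null library 1 (adjusted p = 0.0565) and 0.82 with library totals in place of TMM factors (adjusted p = 0.101). Tpm2 had 158, 224, 174 and 187 CPM in wild-type and 1313, 228, 346 and 273 CPM in Neat1 null libraries. All 4 Neat1 null values were again above the wild-type ones, library 2 by a small margin. Its log2 fold change of 1.54 (SE 0.52) missed the threshold (edgeR adjusted p = 0.0537) and was 0.60 without library 1.

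Tpm1 had 391 to 690 CPM in wild-type and 526 to 1058 CPM in Neat1 null libraries, for a log2 fold change of 0.56 (SE 0.40). Tpm4 had 359 to 442 CPM in wild-type and 278, 531, 226 and 392 CPM in Neat1 null libraries, for a log2 fold change of -0.14 (SE 0.37). Neither was called (edgeR adjusted p = 0.320 and 0.805). Exons of Tpm4 overlap Gm26586 on the other strand, so its counts are uncertain in part. The makeup of tropomyosin RNA per kilobase thus differed: Tpm3 took 17.5% to 27.3% in wild-type and 36.3%, 27.7%, 40.9% and 33.4% in Neat1 null libraries, with no overlap, and Tpm4 took 23.2% to 33.2% in wild-type and 6.33%, 27.8%, 11.5% and 18.2% in Neat1 null libraries. Shares do not depend on library scaling, and no test was made of them. Each of these genes makes several isoforms, which counts per gene do not part.

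**Figure D4:**
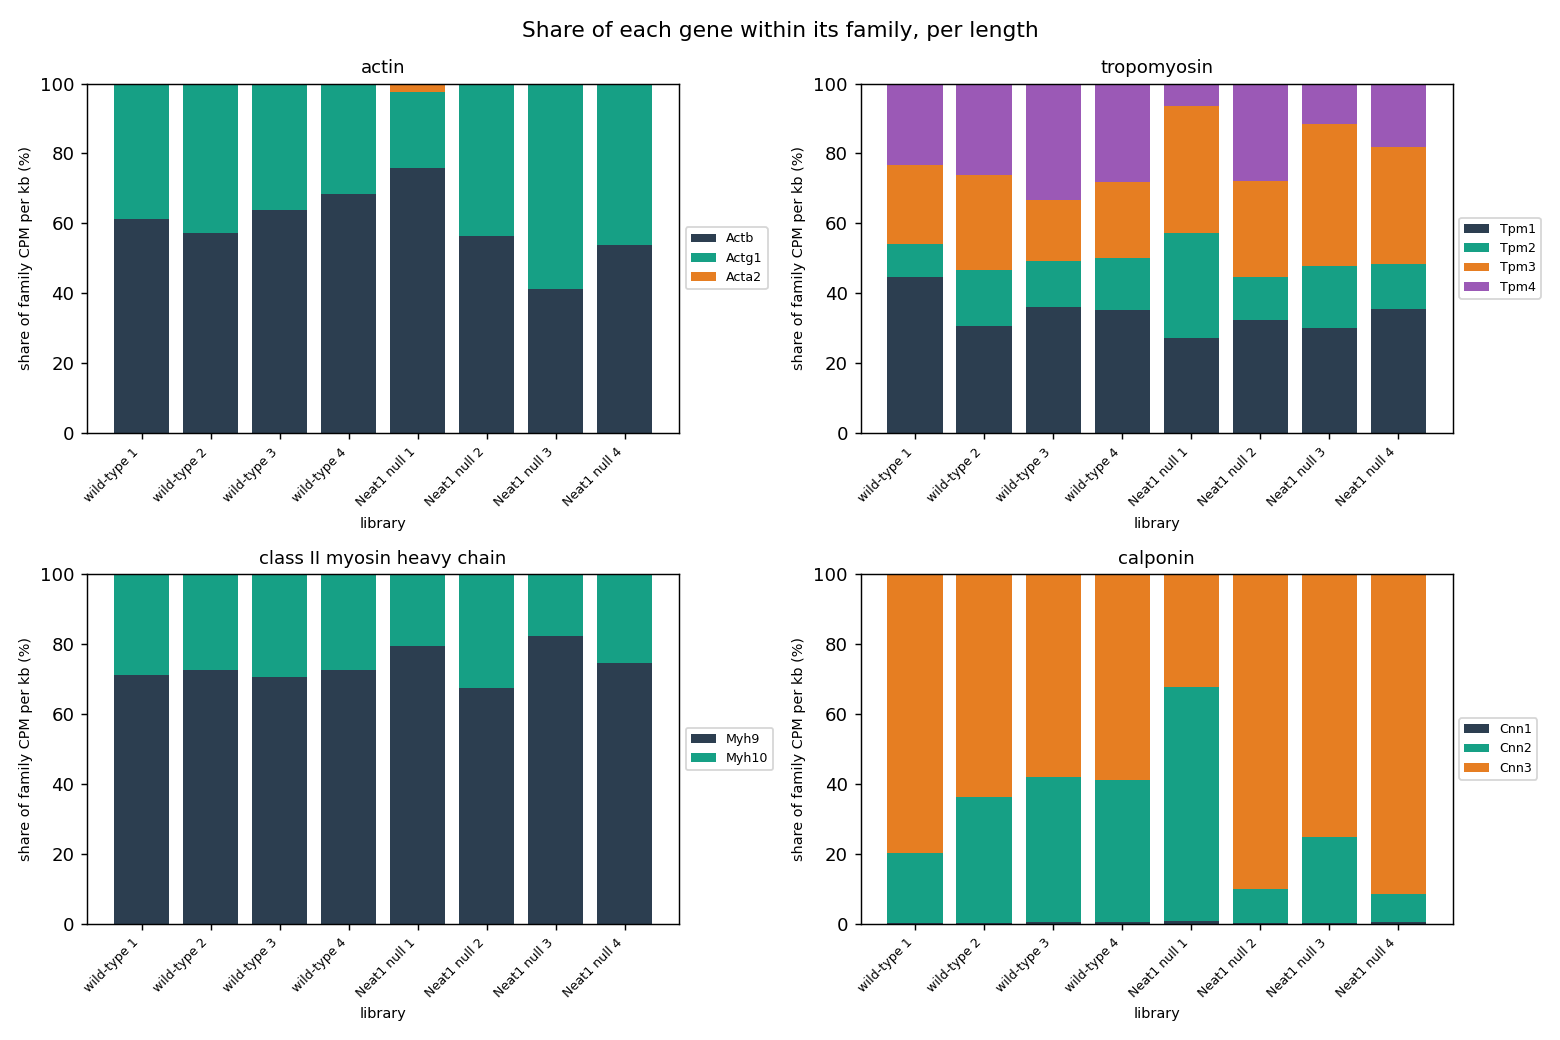
Share of each gene in the summed CPM per kilobase of its family, in percent, for actins, tropomyosins, class II myosin heavy chains and calponins, with 1 bar for each library; genes with under 0.5% (mean of wild-type plus mean of Neat1 null) are drawn nowhere. The Tpm3 segment is 17.5% to 27.3% in wild-type and 27.7% to 40.9% in Neat1 null bars, and the Actg1 segment is largest in Neat1 null library 3 at 58.8%.

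Troponin T genes code for the tropomyosin-binding subunit of striated muscle troponin and were barely expressed. Tnnt1 on chromosome 7 (4504570 to 4516382) had 0.212, 0.0442, 0.210 and 0.268 CPM in wild-type libraries, from 2 to 11 reads each, and 14.0, 0.645, 1.62 and 0.471 CPM in Neat1 null libraries, from 15 to 156 reads. Every Neat1 null library was above every wild-type library. Tnnt1 rose by a log2 fold change of 4.46 (SE 1.06, edgeR adjusted p = 0.0193), and by 2.29 without library 1 (adjusted p = 0.0497). It was in the test only through the group where it was high, so these p-values do not stand apart from that choice. When 1 CPM was asked of 4 libraries, Tnnt1 was not tested. With the length and GC correction it had 3.25 and was not called (adjusted p = 0.0602). Cardiac troponin T (Tnnt2) had 0.0663 to 0.676 CPM in wild-type and 1.44, 0.205, 0.176 and 0.220 CPM in Neat1 null libraries, again with library 1 highest, and its log2 fold change was 0.23 (SE 0.84).

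Myosin II is the motor of the stress fibre, made of 2 heavy chains with a regulatory and an essential light chain each. The essential light chain gene Myl6 on chromosome 10 (128490860 to 128494145) had 215, 348, 193 and 194 CPM in wild-type and 2768, 420, 996 and 382 CPM in Neat1 null libraries. All Neat1 null values were above all wild-type values, with libraries 1 and 3 the highest. Myl6 rose by a log2 fold change of 2.26 (SE 0.60, edgeR adjusted p = 0.0236), and had 1.33 without library 1 (adjusted p = 0.0511). Its transcript of 665 bases is the shortest among the members, and corrected for length and GC content it had 0.94 (adjusted p = 0.133).

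The smooth muscle regulatory light chain gene Myl9 had 0.610 to 2.14 CPM in wild-type and 17.6, 0.469, 1.799 and 0.502 CPM in Neat1 null libraries. Only library 1 stood above wild-type, and the log2 fold change of 2.001 (SE 1.004, edgeR adjusted p = 0.168) turned to -0.45 without it. Myosin light chain kinase (Mylk), which phosphorylates the regulatory chain, had 1.03, 0.508, 1.70 and 2.12 CPM in wild-type and 0.269, 0.381, 0.388 and 1.19 CPM in Neat1 null libraries. Of the Neat1 null libraries, 3 lay below all wild-type ones. Its log2 fold change was -1.22 (SE 0.65, edgeR adjusted p = 0.188), and its exons overlap E130310I04Rik and Gm21691 on the other strand.

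The non-muscle heavy chains did not follow Myl6 in the values without the length and GC correction. Myh9 had 1076, 860, 681 and 794 CPM in wild-type and 1413, 534, 338 and 734 CPM in Neat1 null libraries, with library 1 the highest and library 3 the lowest of all 8. Myh10 had 457, 341, 297 and 313 CPM in wild-type and 382, 270, 76.3 and 260 CPM in Neat1 null libraries, with library 3 at 0.217 times the wild-type mean. Neither was called, with log2 fold changes of -0.18 (SE 0.46) and -0.51 (SE 0.44). Their transcripts have 7433 and 7791 bases. Corrected for length and GC content they had 0.28 and 0.08, against 0.94 for Myl6, and none of these was called. Per kilobase, Myh9 was the main chain in each library, with 70.6% to 72.6% of class II heavy chain RNA in wild-type and 67.4% to 82.3% in Neat1 null libraries. The log2 ratio of Myh10 to Myh9 averaged -1.28 ± 0.07 in wild-type libraries and -1.63 ± 0.51 in Neat1 null ones (SD, 4 libraries each, exact 2-sided permutation p = 0.286, adjusted 0.514). The wild-type libraries were close together in this ratio, and the Neat1 null libraries lay on either side of them.

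Crosslinkers hold filaments in bundles and networks. Alpha-actinin 4 (Actn4) had 760, 606, 530 and 549 CPM in wild-type and 856, 830, 902 and 921 CPM in Neat1 null libraries. The groups did not overlap, yet the log2 fold change of 0.52 (SE 0.37) was not called (edgeR adjusted p = 0.315), and with library totals in place of TMM factors it was -0.012. Alpha-actinin 1 (Actn1) had 276 to 335 CPM in wild-type and 237 to 358 CPM in Neat1 null libraries (log2 fold change 0.02, SE 0.34). The log2 ratio of Actn1 to Actn4 was -1.18, -0.94, -0.89 and -0.99 in wild-type and -1.37, -1.44, -1.93 and -1.36 in Neat1 null libraries. It was thus lower in 4 of 4 Neat1 null libraries, by 0.52 on the log2 scale (exact 2-sided permutation p = 0.0286, the smallest that 4 against 4 libraries can give, adjusted 0.171 over 6 ratios), and did not pass the correction. Exons of Actn4 overlap Capn12, and those of Actn1 overlap Gm47766 and Gm47767, all on the other strand. The X-linked filamin A gene (Flna) had 389 to 710 CPM in wild-type and 455 to 752 CPM in Neat1 null libraries (log2 fold change 0.13, SE 0.39).

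The other 3 ratios did not separate the genotypes. The log2 ratio of Acta2 to Actb was -9.17 ± 0.90 in wild-type against -9.01 ± 2.78 in Neat1 null libraries, that of Tagln to Tagln2 was -6.63 ± 1.17 and -5.01 ± 2.61, and that of Cnn1 to Cnn2 was -7.21 ± 0.89 and -6.32 ± 1.19 (exact permutation p = 0.943, 0.343 and 0.343).

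Of the 8 focal adhesion and LIM domain genes, Csrp1 and Pdlim7 rose and the other 6 were not called. Csrp1, a LIM protein that binds alpha-actinin and zyxin, had 105, 214, 89.1 and 108 CPM in wild-type and 207, 231, 918 and 227 CPM in Neat1 null libraries. Library 3 was 3.98 times the next highest, and library 1 lay just below wild-type library 2. Csrp1 rose by a log2 fold change of 1.61 (SE 0.52, edgeR adjusted p = 0.0443), with 1.81 without library 1 (adjusted p = 0.0406), 0.79 without library 3 (adjusted p = 0.153) and 1.03 with the length and GC correction (adjusted p = 0.111). Pdlim7, a PDZ and LIM protein of stress fibres, had 105, 136, 74.6 and 76.3 CPM in wild-type and 201, 158, 311 and 212 CPM in Neat1 null libraries. All Neat1 null libraries lay above all wild-type ones. Pdlim7 rose by 1.17 (SE 0.36, edgeR adjusted p = 0.0390), and had 0.97 without library 3, 0.60 with library totals and 0.56 with the length and GC correction, none of them called.

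Zyxin (Zyx), which moves to strained stress fibres, had 311, 325, 187 and 180 CPM in wild-type and 338, 318, 953 and 483 CPM in Neat1 null libraries, for a log2 fold change of 1.06 (SE 0.44, edgeR adjusted p = 0.0974). Csrp2 had 22.2 to 41.8 CPM in wild-type and 53.5, 39.0, 104 and 44.7 CPM in Neat1 null libraries, for a log2 fold change of 1.02 (SE 0.38, edgeR adjusted p = 0.0723). Hic-5 (Tgfb1i1), a paxillin relative, had 2.45 to 6.69 CPM in wild-type and 6.83, 6.10, 16.7 and 6.02 CPM in Neat1 null libraries, for a log2 fold change of 1.06 (SE 0.48, edgeR adjusted p = 0.128). In each of these 3 genes the highest library was Neat1 null library 3, at 3.49 to 3.91 times the wild-type mean, and the groups overlapped.

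Vinculin (Vcl), which links talin to actin, had 165, 175, 246 and 192 CPM in wild-type and 128, 156, 91.2 and 159 CPM in Neat1 null libraries. All Neat1 null libraries were below all wild-type ones, also with library totals in place of TMM factors. The log2 fold change of -0.54 (SE 0.34) was not called (edgeR adjusted p = 0.259), and was 0.05 with the length and GC correction. Talin 1 (Tln1) had 396 to 498 CPM in wild-type and 352 to 643 CPM in Neat1 null libraries, and paxillin (Pxn) 210 to 267 and 161 to 360 CPM. Their log2 fold changes were 0.21 (SE 0.37) and 0.07 (SE 0.36). Exons of Vcl overlap those of Ap3m1, of Zyx those of Epha1 and of Tln1 those of Creb3, each on the other strand, so without the strand setting part of their counts is uncertain.

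**Figure D5:**
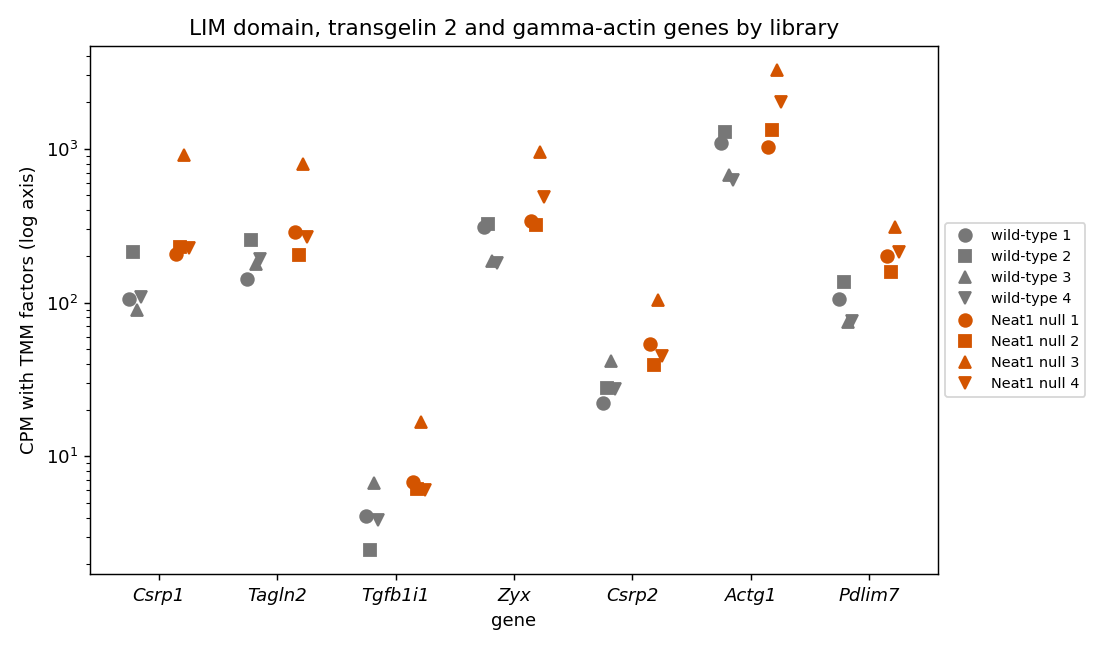
CPM on a log axis of 5 LIM domain genes (Csrp1, Tgfb1i1, Zyx, Csrp2 and Pdlim7), Tagln2 and Actg1 in each library; grey marks are wild-type and orange marks Neat1 null libraries, with 1 shape for each library number. Neat1 null library 3 (orange upward triangles) is the highest for all 7 genes, from 16.7 CPM for Tgfb1i1 to 3255 CPM for Actg1. All 7 are from the 9 tested members whose highest library it was, so the choice of genes fixed this order.

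Across the 30 tested members, the top value was that of Neat1 null library 1 for 14 and of Neat1 null library 3 for 9, where these libraries held the highest value of 20.1% and 23.3% of all genes tested. The 9 genes led by library 3 were Actg1, Tagln2, Tln1, Pxn, Zyx, Tgfb1i1, Pdlim7, Csrp1 and Csrp2, so all but Actg1 and Tagln2 were focal adhesion or LIM domain genes. Together the 33 members took 0.963% to 1.18% of gene counts in wild-type and 1.02% to 1.24% in Neat1 null libraries, so without TMM factors the groups overlapped in this share. With them, the sum was 7401 to 9781 CPM in wild-type and 17972, 9685, 15030 and 12225 CPM in Neat1 null libraries.

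Promoters were searched for the CArG box because SRF targets are frequent among these genes. RefSeq promoter windows (GRCm38.p6, 250 bases before to 50 after the annotated start) were matched by symbol for 26 of the 33 members, and 5 of these (19.2%) held an exact CArG box, against 1.81% of 27025 genes of the whole table. The box reads the same on the other strand, so a single search covered both. Stretches of 50 bases upstream of the start around each match are shown, 5′ to 3′ on the gene's strand, with the CArG box in capitals. They lie at chr11:120348556-120348605 (Actg1, minus strand), chr10:79988524-79988573 (Cnn2, plus), chr10:128493030-128493079 (Myl6, minus), chr2:156775283-156775332 (Myl9, plus) and chr14:20929151-20929200 (Vcl, plus).
Actg1: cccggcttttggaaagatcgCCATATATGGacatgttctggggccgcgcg
Cnn2: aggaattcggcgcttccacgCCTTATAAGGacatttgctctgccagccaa
Myl6: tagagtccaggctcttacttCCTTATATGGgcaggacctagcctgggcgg
Myl9: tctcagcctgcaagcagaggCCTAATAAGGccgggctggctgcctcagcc
Vcl: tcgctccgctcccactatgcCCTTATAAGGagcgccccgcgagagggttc
The match of Myl6 lies before the other of its 2 annotated starts. The 5 genes with a match did not move as a group: Myl6 rose, and Actg1, Cnn2, Myl9 and Vcl, with log2 fold changes of 1.05, -0.015, 2.001 and -0.54, were not called. The window of Acta2 held no exact match, which says only that these letters are not in it.

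SRF itself (Srf) had 102, 77.7, 42.5 and 40.9 CPM in wild-type and 123, 83.9, 196 and 123 CPM in Neat1 null libraries, for a log2 fold change of 1.00 (SE 0.40) that was not called (edgeR adjusted p = 0.0882). Of its coactivators, Mkl1 had a log2 fold change of 0.26 (SE 0.34), Mkl2 -0.71 (SE 0.36) and Myocd -1.51 (SE 0.79). None of the 4 was called. They are named as the whole of that list, after their values were seen.

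The wider actin machinery was compared through 7 lists of 87 further genes, of which 82 were tested, 6 rose and 6 fell, and their median was -0.05 on the log2 scale (9.97% and 7.72% of all genes rose and fell). With library totals in place of TMM factors, 0 of them rose and 18 fell. Of the Arp2/3 complex, which starts branched filaments, 2 of 9 subunits rose, Arpc4 by 1.39 (SE 0.43) and Arpc5l by 1.23 (SE 0.41). The median of that list was 0.72. Arpc5l was highest in Neat1 null library 1, at 2.16 times the next library, and had 0.74 without that library (edgeR adjusted p = 0.128). Its exons overlap Rpl35 on the other strand, so its counts are uncertain in part. Corrected for length and GC content, Arpc4 had 1.14 (edgeR adjusted p = 0.0588) and Arpc5l 0.73 (adjusted p = 0.127), and neither was called. Of 14 genes of monomer and filament turnover, only the capping protein gene Capzb rose, from 199 ± 30.9 to 525 ± 114 CPM (log2 fold change 1.40, SE 0.36, edgeR adjusted p = 0.0217), and it was called after the length and GC correction as well (0.99, adjusted p = 0.0459). Of 12 formins and elongation factors, Fhod3, a formin of the sarcomere, fell by 2.68 on the log2 scale (SE 0.60), from 5.51 ± 3.11 to 0.863 ± 0.439 CPM.

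The remaining focal adhesion and stress fibre genes moved in both directions. Of 24 tested, 2 rose (Trip6 and Sorbs3) and 5 fell, among them Tns1, Lpp, Fblim1 and Palld. Tns1, tensin 1 of fibrillar adhesions, had 9.28, 11.6, 45.5 and 47.6 CPM in wild-type and 1.53, 3.61, 6.49 and 3.64 CPM in Neat1 null libraries, for a log2 fold change of -2.89 (SE 0.59, edgeR adjusted p = 0.0180). Lpp, a zyxin relative, had a log2 fold change of -1.74 (SE 0.46). Tns1 was still called after the length and GC correction (-2.21, adjusted p = 0.0468), and Lpp, with a transcript of 15459 bases, was not (-0.68, adjusted p = 0.157). Trip6, another zyxin relative, Sorbs3, Fblim1 and Palld had 1.44, 1.94, -1.31 and -1.27, and are named after their values were seen. Without Neat1 null library 3, wild-type library 3 or wild-type library 4, 0 of the 82 genes were called in either direction.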

How the data were processed

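Total RNA of 8 mouse fibroblast libraries was sequenced after TruSeq Stranded preparation, per the labels' protocols. The values are whole-number read counts per gene symbol as deposited by the authors, 1 file for each library. CASAVA 1.8, STAR, DESeq2 and mm10 are named in the submitters' processing notes, and the counting tool and its strand setting are not given in the sources used here. Rows for reads without a gene (5.48% to 15.7%) or with several (1.09% to 1.76%) were left out.

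Genes were tested with edgeR 4.0.16 (R 4.3.3): filterByExpr with a minimum count of 10, TMM factors, a robust quasi-likelihood fit on genotype with all 8 libraries, and Benjamini-Hochberg adjustment over 13316 genes at 0.05. The SE is the absolute log2 fold change over the square root of F. CPM use TMM factors. DESeq2 1.42.0 was an alternative. Of 23420 symbols 98.4% matched GENCODE M21 (GRCm38), which gave coordinates, lengths and GC content, and the length and GC correction used splines with 5 degrees of freedom as offsets. Ratios of related genes (pseudocount 0.1 CPM) were tested by exact permutation over 70 assignments. The scripts were tested on simulated data. There the fit called 8.16% of 2-fold, 58% of 4-fold and 93.6% of 8-fold changes at an adjusted p below 0.05. A gene that was not called may therefore still differ.

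The members and lists were chosen with earlier results of these data known. All 33 members and Neat1 are named, and from each further list up to 3 called genes with the smallest p. Some items that this rule names are not reported here. Replicate libraries differed by more than sampling noise. The closing section gives the alternatives tried.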

Additional observations from a re-analysis of the deposited data

Results flagged for a closer look

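In 21 of 96 sets of 4 libraries, the highest or lowest library lay far from the other 3 by Dixon's gap test. Chance gives that in about 5 of 100 independent sets of normal values. The sets here come from the same 8 libraries and some share genes, so the 21 cannot be set against that rate. Of the 21, 9 were high values of Neat1 null library 1 and 5 were high values of Neat1 null library 3. Both libraries also had low TMM factors and high shares of ribosomal protein counts, whose part in these values was not tested.

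Neat1 null library 1 stood above the other Neat1 null libraries with 122.7 CPM for Acta2, 1.35 CPM for Actg2, 106.9 CPM for Tagln, 317 CPM for Cnn2, 1313 CPM for Tpm2, 14.0 CPM for Tnnt1, 1.44 CPM for Tnnt2 and 17.6 CPM for Myl9, and with a log2 ratio of Acta2 to Actb of -4.85. Neat1 null library 3 stood above the others of its group with 801 CPM for Tagln2, 16.7 CPM for Tgfb1i1, 918 CPM for Csrp1, 547 CPM for Arpc4 and 695 CPM for Capzb, and below them with a log2 ratio of Actn1 to Actn4 of -1.93. Neat1 null library 4 was high for Mylk, at 1.19 CPM.

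Among wild-type libraries, library 1 was high for Tpm1 (690 CPM) and library 2 for Myl6 (348 CPM) and Csrp1 (214 CPM). Wild-type library 2 was low in the log2 ratio of Cnn1 to Cnn2 (-8.54). Wild-type library 3 was the only one of its group with a read of Actg2 (0.0233 CPM).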

How the results depend on the processing

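Of the members, 5 were called higher with all libraries, among them Tnnt1, which was tested only through the group where it was high. The count was 3 with library totals in place of TMM factors (added after the data were seen), 1 with the length and GC correction, 9 with DESeq2, 0 at an adjusted p below 0.01, 0 without Neat1 null libraries 1 and 3, and 0 to 8 when 1 library was left out. The count of members called lower was 0 throughout these alternatives. That of DESeq2 was over a different set of 30 members, with Actg2 and without Acta2, Tagln and Myl9. All genes called, 2356 with all libraries, were 949 with the length and GC correction, 3559 with DESeq2, 7 at an adjusted p below 0.01, 7 without Neat1 null libraries 1 and 3, and 11 to 2965 with 1 library left out. Of the further actin genes, 6 were higher and 6 lower. With library totals these were 0 and 18, with DESeq2 11 and 12, at the stricter threshold 0 and 0, without Neat1 null libraries 1 and 3 0 and 0, and with 1 library left out 0 to 8 each, and with the length and GC correction 1 and 4. The difference in the log2 ratio of Myh10 to Myh9, -0.35 with all libraries, was 0.0382 without Neat1 null libraries 1 and 3. Log2 fold changes turned sign with library totals for Cnn1 (-0.21), Cnn3 (-0.073), Tpm1 (-0.031), Tnnt2 (-0.53), Flna (-0.45), Actn1 (-0.50), Actn4 (-0.012), Tln1 (-0.35) and Pxn (-0.53). With upper-quartile factors this held for Flna (-0.047), Actn1 (-0.15) and Pxn (-0.13), and for Cnn2 with RLE size factors (0.060) and DESeq2 (0.056). The length and GC correction turned Tnnt2 (-0.68), Myh9 (0.28), Myh10 (0.084) and Vcl (0.048). Without Neat1 null libraries 1 and 3 the turned values were Acta2 -0.85, Cnn1 -0.29, Tpm4 0.22, Tnnt2 -0.88, Myl9 -1.37, Flna -0.066 and Pxn -0.21. With 1 library left out, the log2 fold change ran from -0.90 to 3.98 for Acta2, -0.20 to 0.98 for Cnn1, -1.26 to 0.31 for Cnn2, -0.39 to 0.036 for Tpm4, -0.94 to 0.64 for Tnnt2, -0.45 to 2.40 for Myl9, -0.67 to 0.076 for Myh9, -0.011 to 0.29 for Flna, -0.050 to 0.14 for Actn1 and -0.18 to 0.23 for Pxn. The cause was not tested for any of these.

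Same-numbered libraries did not deviate together (correlations of 0.317, -0.258, -0.0140 and 0.107), and 2 of 8 libraries correlated best with their own number. With the replicate number as a block, 2245 genes and 4 members (Tagln, Tpm3, Tnnt1 and Myl6) were called, and Acta2 had a log2 fold change of -0.090. The block together with the length and GC correction was not run, since the numbers do not pair the libraries. Depth limits Actg2, Lmod1, Myh11, Tnnt1 and Tnnt2, which had few reads in most libraries.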
